A study of Mus musculus with 8 samples.

Results

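Adrenocortical identity transcription factors are the 7 regulators Nr5a1, Nr0b1, Gata4, Gata6, Cited2, Wt1 and Tcf21. They were listed by name and not by a rule on measured values, though earlier results of these data were known. All 7 were found among the 18846 gene symbols of the deposited tables, and 7 of 7 passed the filter on low counts that left 15361 genes for testing. RNA sequencing of whole adrenal glands was available from 8 mice of strain 129SVEV, either wild-type or Siah1a-/-. The groups were untreated wild-type, untreated Siah1a-/-, wild-type given ACTH and Siah1a-/- given ACTH, with 2 animals in each group, 1 labelled male and 1 labelled female. ACTH, the pituitary hormone that drives glucocorticoid synthesis, was injected intraperitoneally at 100 ug per kg and glands were taken 1 hour later. SIAH1A is a RING-type ubiquitin ligase that marks proteins for degradation. The labels name no vehicle injection among these 8 libraries, so ACTH and the handling that came with it cannot be told apart. Age was not given in the sources used here, and no tissue-restricted driver is named for the Siah1a-/- allele. Libraries are named below by genotype, treatment and labelled sex.

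SF-1, the product of Nr5a1, is an orphan nuclear receptor without which the adrenal gland and gonads do not form, and it switches on the genes of steroid synthesis. In the coelomic epithelium WT1 and its cofactor CITED2 raise Nr5a1 as the adrenal primordium separates from the gonad, while in the adult gland steroid-producing cells are renewed from progenitors under the capsule, among which TCF21 marks cells that do not make steroids. DAX-1, the product of the X-linked gene Nr0b1, represses SF-1 and holds progenitors back from differentiation, and GATA6 and GATA4 are zinc-finger factors that act with SF-1, the first mainly in the adrenal cortex and the second mainly in the gonads.

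Library totals ranged from 8020111 counts in the library labelled as an untreated wild-type male to 29568950 in the ACTH-treated wild-type female library. Summed cortex markers lay between 29876 and 64464 counts per 1000000 of the scaled library (CPM) and medulla markers between 1821 and 7480 CPM, so each library held both parts of the gland. Kidney tubule markers reached 2059 CPM in the library labelled as an untreated wild-type male against at most 9.10 CPM elsewhere, and liver markers reached 63051 CPM in the ACTH-treated wild-type female library against 124 to 812 CPM elsewhere. Siah1a itself stood at 26.1 to 33.1 CPM in the wild-type libraries and at 17.4 to 25.2 CPM in the Siah1a-/- libraries, so the targeted gene was lower but still counted, and the labels do not say which part of it was deleted. The library labelled as an untreated wild-type male carried 388 CPM of Xist, the transcript of the inactive X, against 4.05 to 31.8 CPM in the other male-labelled libraries and 253 to 761 CPM in the female-labelled ones, and 3.06 CPM of the Y-linked gene Ddx3y, against 311 to 376 CPM in the other male-labelled libraries, so both genes go against its label. That library also listed 403 genes at 0 that had at least 10 counts in each of the other 7 libraries, Gata4 among them, and the ACTH-treated Siah1a-/- male library listed 181 such genes, Tcf21 among them, against 1 to 62 in each remaining library. Where leaving out one of these libraries moved an estimate by a large amount, the value without it is given.

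Promoter windows are shown for Cited2, the member whose levels separated the genotypes with the smallest p, and for Nr0b1, the member whose levels separated the labelled sexes. Each window is the 250 bases before the RefSeq start in GRCm38.p6 (mm10), read 5′ to 3′ on the gene's own strand. The reference is C57BL/6J, whereas the animals were 129SVEV. Capitals mark matches to any searched motif on either strand.
Cited2, chr10:17722978-17723227, plus strand: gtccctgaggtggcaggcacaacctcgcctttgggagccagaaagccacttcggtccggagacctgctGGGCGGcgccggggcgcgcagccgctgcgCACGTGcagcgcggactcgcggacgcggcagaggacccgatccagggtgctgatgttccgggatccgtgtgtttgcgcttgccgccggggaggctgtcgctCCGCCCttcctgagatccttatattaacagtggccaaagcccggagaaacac
Nr0b1, chrX:86191525-86191774, plus strand: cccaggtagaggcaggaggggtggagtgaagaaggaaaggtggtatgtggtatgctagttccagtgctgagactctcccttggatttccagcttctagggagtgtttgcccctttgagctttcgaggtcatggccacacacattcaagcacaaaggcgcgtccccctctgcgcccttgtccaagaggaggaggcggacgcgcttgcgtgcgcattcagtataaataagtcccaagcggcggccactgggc
The motifs searched were AAGGTCA (the site that SF-1 and its relatives bind as monomers), the E-boxes CACGTG and CANNTG, the GATA forms AGATAA or TGATAA or AGATAG or TGATAG, the core TGACG of the cAMP response element and the GC box GGGCGG. The Cited2 window held 1 CACGTG E-box starting 153 bases before the start, which is also the window's 1 CANNTG match, and GC boxes starting 182 and 52 bases before the start. The Nr0b1 window held no match to any of them. Tcf21 had 1 GATA match, 31 bases before its start, in the window chr10:22820144-22820393 on the minus strand. Over all 32851 windows of this length, which covered 27025 symbols, 6.02% held CACGTG, 66.2% held CANNTG, 32.7% held a GC box, 26.5% held a GATA form, 17.8% held TGACG and 4.08% held AAGGTCA. Nr5a1, Gata4 and Wt1 had no entry in the promoter table. These matches describe letters only, and no binding was measured.

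Levels were compared between genes on the length-corrected scale of the deposited RPKM values (reads per kilobase of transcript, scaled to library size). Over all 8 libraries the order of mean RPKM, given as mean ± SD with n = 8, was Nr5a1 at 145 ± 20.7, Cited2 at 68.7 ± 33.4, Gata6 at 20.0 ± 5.47, Nr0b1 at 4.53 ± 2.84, Tcf21 at 3.72 ± 1.70, Gata4 at 0.785 ± 0.450 and Wt1 at 0.371 ± 0.348. Nr5a1 exceeded Cited2, and Cited2 exceeded Gata6, in 8 of 8 libraries, and Gata6 exceeded each of the lower 4 in all 8. Among the lower 4, Tcf21 was above Gata4 in 7 of 8 libraries, all but the one where Tcf21 was 0. The other neighbours did not separate beyond their spread, with Nr0b1 above Tcf21 in 6 of 8 libraries and Gata4 above Wt1 in 5 of 8. The SF-1 gene was therefore the most abundant of the 7 per length, and its repressor Nr0b1 stood well below it, with an Nr5a1 to Nr0b1 ratio of RPKM from 18.2 in the ACTH-treated wild-type female library to 107.7 in the ACTH-treated Siah1a-/- male library. Of the GATA pair, Gata6 exceeded Gata4 by a ratio of RPKM of 10.4 to 52.4 in the 7 libraries with Gata4 counts. Markers of gonadal cells summed to 5.69 to 12.9 CPM in all 8 libraries.

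**Figure D1:**
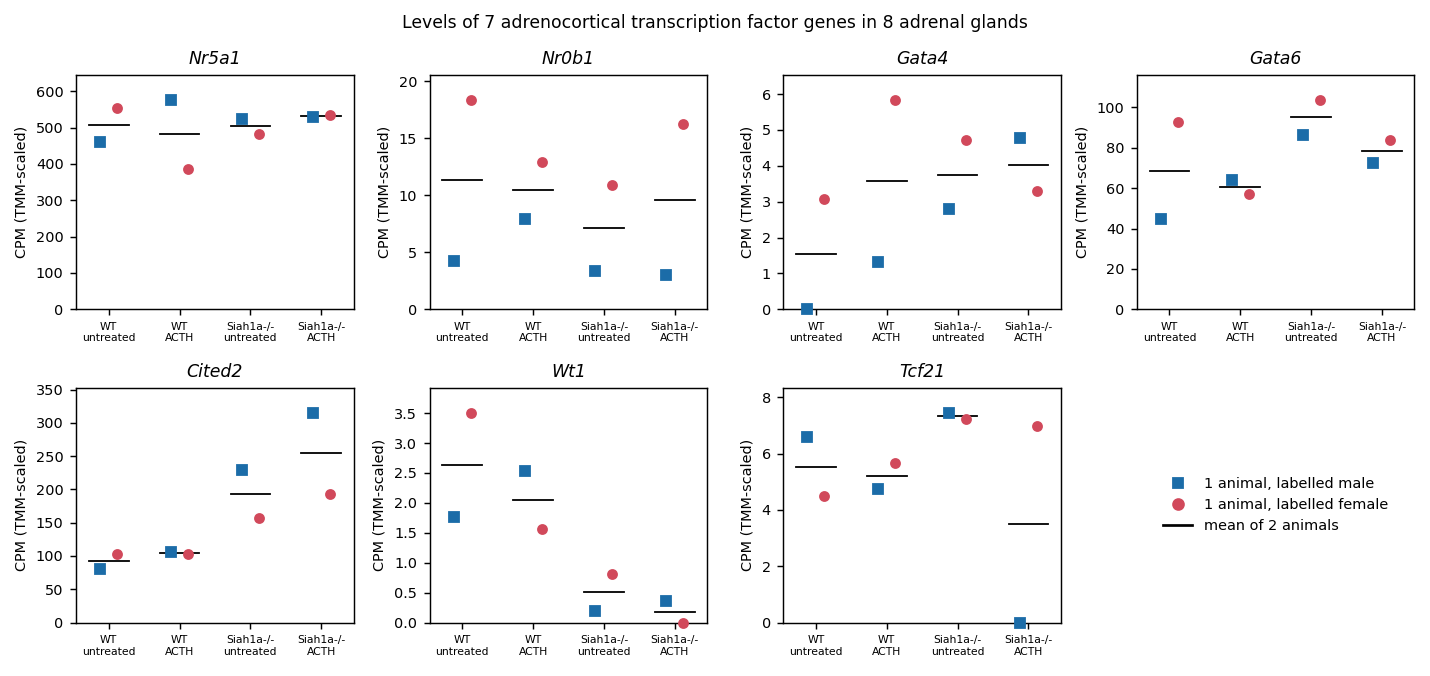
Levels of the 7 members in CPM (vertical axes from 0, each panel on its own scale) in the 8 libraries, grouped by genotype and treatment, with 1 point for each animal coded by its labelled sex and a line at the mean of the 2. The 4 Siah1a-/- libraries lie above every wild-type library for Cited2 and below every wild-type library for Wt1, and the single points at 0 belong to Gata4, Wt1 and Tcf21.

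The comparison of Siah1a-/- with wild-type glands asked whether loss of the ligase moved the levels of these regulators. Tests used edgeR's quasi-likelihood test on counts, with genotype, treatment and labelled sex in the model, and p-values adjusted over all 15361 genes. None of the 7 members passed an adjusted p of 0.05, in a comparison where 4 genes (0.026%) did, while 1 member, Cited2, had an unadjusted p under 0.05, as did 13.4% of all genes. DESeq2 called 1 member, Cited2, against 6.15% of all genes, and limma-voom called the same 1 member against 0.703% of all genes. The 4 Siah1a-/- libraries did not overlap the 4 wild-type libraries for 2 of the 7 members, Cited2 and Wt1, against 8.92% of all genes tested. In tissue of mixed cells, fewer cells of a type and less RNA per cell cannot be told apart.

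Cited2 encodes a coactivator that binds CBP and p300 and competes with HIF1A for them. Its level was 81.0 CPM in the library labelled as an untreated wild-type male, 103.2 in the untreated wild-type female, 106.6 in the ACTH-treated wild-type male and 103.3 in the ACTH-treated wild-type female library. In Siah1a-/- glands it was 229 CPM in the untreated male, 157 in the untreated female, 315 in the ACTH-treated male and 193 in the ACTH-treated female library. Every Siah1a-/- library was above every wild-type library, as were 4.21% of all genes tested. Wild-type glands averaged 98.5 ± 11.8 CPM and Siah1a-/- glands 224 ± 67.6 CPM (SD, n = 4 each). The difference was 2.2-fold (log2 fold change 1.14, SE 0.20), with an unadjusted p of 0.000446 and an adjusted p of 0.0997 by edgeR. Within animals of like treatment and labelled sex, the Siah1a-/- to wild-type ratio was above 1 in 4 of 4 pairs. It was 2.83 in the untreated male-labelled, 1.52 in the untreated female-labelled, 2.95 in the ACTH-treated male-labelled and 1.87 in the ACTH-treated female-labelled pair. Both male-labelled ratios were the higher ones, but the wild-type library of the untreated male-labelled pair had Xist and Ddx3y levels that go against its label. The order therefore holds for the labels, and a difference by sex was not tested.

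The call on Cited2 depended on the test. DESeq2 gave the same log2 fold change, 1.14, with an adjusted p of 1.15e-05, and limma-voom gave 1.14 with an adjusted p of 0.0388. With edgeR, leaving out the untreated wild-type female library gave 1.31 with an adjusted p of 0.0211, and over the 8 fits that each left out 1 library the log2 fold change ran from 0.99 to 1.31 and the adjusted p from 0.0211 to 0.253. Without both wild-type libraries that carried kidney or liver transcripts, the log2 fold change was 1.03 with an adjusted p of 0.284 by edgeR. Summed cortex markers lay at 45055 to 64464 CPM in the Siah1a-/- and 29876 to 49333 CPM in the wild-type libraries, ranges that overlap, with 8 of 9 markers fitted above 0, none called and a median log2 fold change of 0.74. Summed medulla markers lay at 1821 to 7480 CPM and 2059 to 4059 CPM in the same order, also with 8 of 9 fitted above 0, none called and a median of 0.73. The ACTH-treated Siah1a-/- female library, lowest of all 8 in medulla markers and lowest Siah1a-/- library in cortex markers, had 193 CPM of Cited2. The ACTH-treated Siah1a-/- male library, highest of all 8 in cortex markers, had the highest Cited2 level, 315 CPM. The part of cell makeup in the Cited2 difference was not tested.

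**Figure D2:**
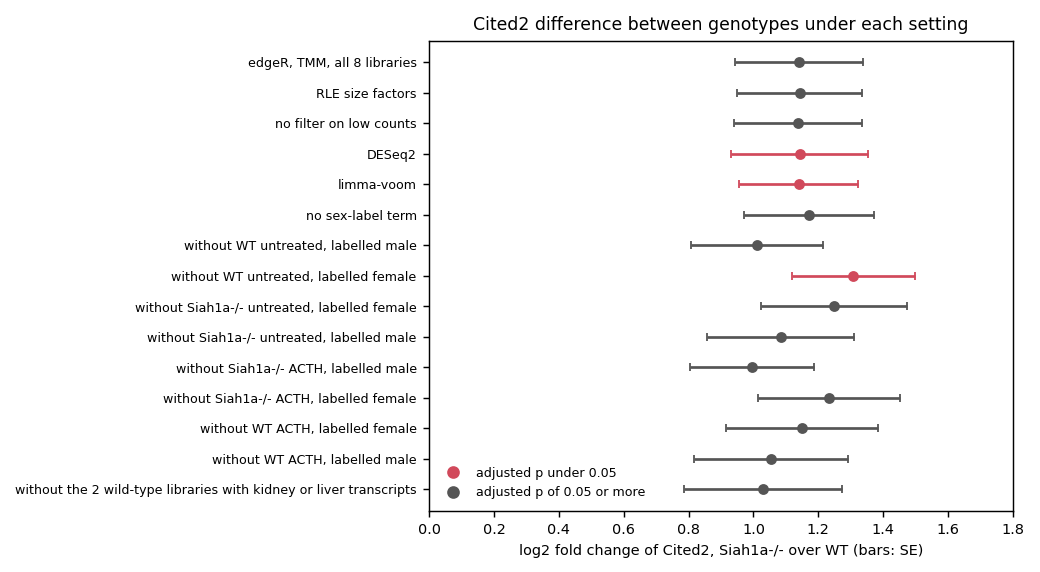
Log2 fold change of Cited2, Siah1a-/- against wild-type, under each fit (horizontal axis, log2 scale; bars are the standard error). Every estimate lies between 0.99 and 1.31, to the right of 0, while the adjusted p crosses 0.05 for DESeq2, limma-voom and the edgeR fit without the untreated wild-type female library.

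Wt1, the zinc-finger factor that raises Nr5a1 in the adrenal primordium, had few counts. Its level was 1.76 CPM (15 counts) in the library labelled as an untreated wild-type male, 3.50 (64 counts) in the untreated wild-type female, 2.53 (62 counts) in the ACTH-treated wild-type male and 1.57 (41 counts) in the ACTH-treated wild-type female library. In Siah1a-/- glands it was 0.199 CPM (3 counts) in the untreated male, 0.812 (10 counts) in the untreated female, 0.356 (5 counts) in the ACTH-treated male and 0 in the ACTH-treated female library, where 3 counts would have been 0.230 CPM. All 4 Siah1a-/- libraries were below all 4 wild-type libraries, as were 4.71% of all genes tested. The summed count was 182 over the wild-type and 18 over the Siah1a-/- libraries, and mean levels were 2.34 ± 0.879 and 0.342 ± 0.346 CPM (SD, n = 4 each). The fitted log2 fold change was -2.90 with SE 1.45 and an adjusted p of 0.4375 by edgeR, and it depends on how a count of 0 is treated. Over the alternatives it ran from -3.98 to -2.39 with adjusted p from 0.166 to 0.810, so the direction held and no fit called it.

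Wt1 is also a podocyte and mesothelium gene, and markers of both were read beside it. The podocyte marker Nphs1 stood at 3.41 CPM in the library labelled as an untreated wild-type male, the one with kidney transcripts. The summed podocyte list, which holds genes expressed in other tissues too, spanned 438 to 550 CPM with no separation of the genotypes. Mesothelium markers were at 0 to 16.8 CPM in wild-type and 3.56 to 19.9 CPM in Siah1a-/- libraries, with all 6 at 0 in the library labelled as an untreated wild-type male. Without that library the log2 fold change of Wt1 was -3.35 by edgeR, and without both wild-type libraries that carried kidney or liver transcripts it was -3.31. The antisense transcript Wt1os did not exceed 0.497 CPM in any library.

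Nr5a1 was at 460 CPM in the library labelled as an untreated wild-type male, 554 in the untreated wild-type female, 577 in the ACTH-treated wild-type male and 387 in the ACTH-treated wild-type female library. In Siah1a-/- glands it was 524 CPM in the untreated male, 482 in the untreated female, 529 in the ACTH-treated male and 535 in the ACTH-treated female library. All Siah1a-/- values lay inside the wild-type range. Means were 494 ± 87.8 and 517 ± 23.9 CPM (SD, n = 4 each), a log2 fold change of 0.07 with SE 0.16 and adjusted p 0.8985 by edgeR. The lowest value belonged to the library with liver transcripts, and without it and the library with kidney transcripts the log2 fold change was -0.13. The transcript with the downstream start took 14.1% to 31.5% of Nr5a1 counts (median 19.0%), with its highest share in the library labelled as an untreated wild-type male, and the authors' estimated counts rest on how reads common to both transcripts were divided.

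Nr0b1 was at 4.23 CPM in the library labelled as an untreated wild-type male, 18.4 in the untreated wild-type female, 7.96 in the ACTH-treated wild-type male and 12.9 in the ACTH-treated wild-type female library. In Siah1a-/- glands it was 3.39 CPM in the untreated male, 10.9 in the untreated female, 2.99 in the ACTH-treated male and 16.2 in the ACTH-treated female library. The genotypes overlapped, with means of 10.9 ± 6.14 and 8.38 ± 6.38 CPM (SD, n = 4 each). Its log2 fold change between genotypes was -0.57 with SE 0.42 and adjusted p 0.611 by edgeR, with 3 of 4 pairs lower in Siah1a-/- glands. Over the alternatives it ran from -0.89, without both wild-type libraries that carried kidney or liver transcripts, to -0.27.

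Gata6 was at 44.7 CPM in the library labelled as an untreated wild-type male, 92.7 in the untreated wild-type female, 64.2 in the ACTH-treated wild-type male and 57.0 in the ACTH-treated wild-type female library. In Siah1a-/- glands it was 86.6 CPM in the untreated male, 103.8 in the untreated female, 72.6 in the ACTH-treated male and 83.7 in the ACTH-treated female library. It was higher in the Siah1a-/- animal of 4 of 4 pairs, yet the untreated wild-type female library exceeded 3 of the 4 Siah1a-/- libraries and the groups overlapped. Means were 64.6 ± 20.4 and 86.7 ± 12.9 CPM (SD, n = 4 each), a log2 fold change of 0.43 with SE 0.21 and adjusted p 0.421 by edgeR. Leaving out libraries or changing the tool moved the estimate between 0.15 and 0.60. The lowest, 0.15, came without both wild-type libraries that carried kidney or liver transcripts. On the log2 scale, the pairs holding those libraries differed by 0.95 (untreated males) and 0.56 (ACTH-treated females). The remaining pairs differed by 0.16 (untreated females) and 0.18 (ACTH-treated males). An antisense gene, 1010001N08Rik, overlaps exons of Gata6 and had up to 176 counts in a library, and whether counting used strand was not given in the sources used here, so Gata6 values may hold antisense reads.

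Gata4 was listed at 0 in the library labelled as an untreated wild-type male, where 3 counts would have been 0.353 CPM. It was at 3.07 CPM in the untreated wild-type female, 1.31 in the ACTH-treated wild-type male and 5.84 in the ACTH-treated wild-type female library, the last being the library with liver transcripts. Siah1a-/- glands had 2.79 CPM in the untreated male, 4.71 in the untreated female, 4.77 in the ACTH-treated male and 3.29 in the ACTH-treated female library. Wild-type values enclosed all the Siah1a-/- values. The log2 fold change of Gata4 was 1.43 with SE 1.24 and adjusted p 0.674 by edgeR. That estimate was 0.55 without the library at 0 and 0.16 with limma-voom. The authors' estimated counts were divided between 2 Gata4 transcripts in nearly the same proportion, 48.9% and 51.1%, in all 7 libraries with counts, so they carry no information on transcript use.

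Tcf21, a basic helix-loop-helix factor, was at 6.59 CPM in the library labelled as an untreated wild-type male, 4.49 in the untreated wild-type female, 4.74 in the ACTH-treated wild-type male and 5.65 in the ACTH-treated wild-type female library. Siah1a-/- glands had 7.44 CPM in the untreated male, 7.23 in the untreated female and 6.97 in the ACTH-treated female library, but 0 in the ACTH-treated male library, where 3 counts would have been 0.213 CPM. The genotypes overlapped. With the library at 0 the log2 fold change was -0.27, SE 1.20, adjusted p 0.952 by edgeR, and without it the estimate was 0.43 (SE 0.51). Capsule and stroma markers summed to 526.4 CPM in that library, the lowest of the 8, against 663 to 1414 CPM elsewhere, and it was lowest or tied for lowest in 7 of the 10 markers. Gli1 and Mfap5 were at 0 there, while Dcn at 298 CPM and Pdgfra at 36.4 CPM lay inside the range of the other libraries. Gli1 was also at 0 in the library labelled as an untreated wild-type male, where Tcf21 was 6.59 CPM. Whether fewer capsule cells gave the Tcf21 zero was not tested.

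**Figure D3:**
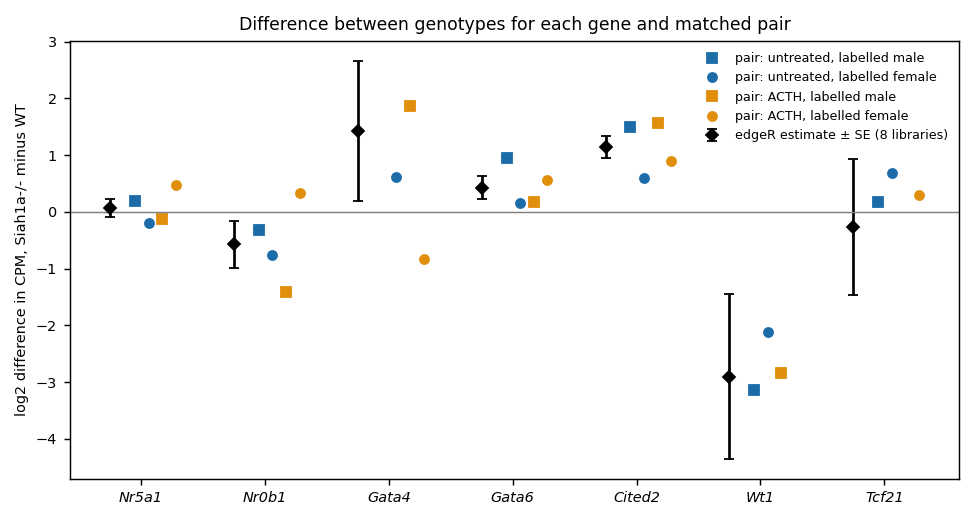
Log2 ratio of Siah1a-/- to wild-type CPM for each member in the 4 pairs of animals that share treatment and labelled sex (points), with the edgeR log2 fold change and its standard error (bars); pairs with a level of 0 cannot be drawn. All 4 pairs of Cited2 and of Gata6 lie above 0, and the 3 drawable pairs of Wt1 lie below 0.

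**Figure D4:**
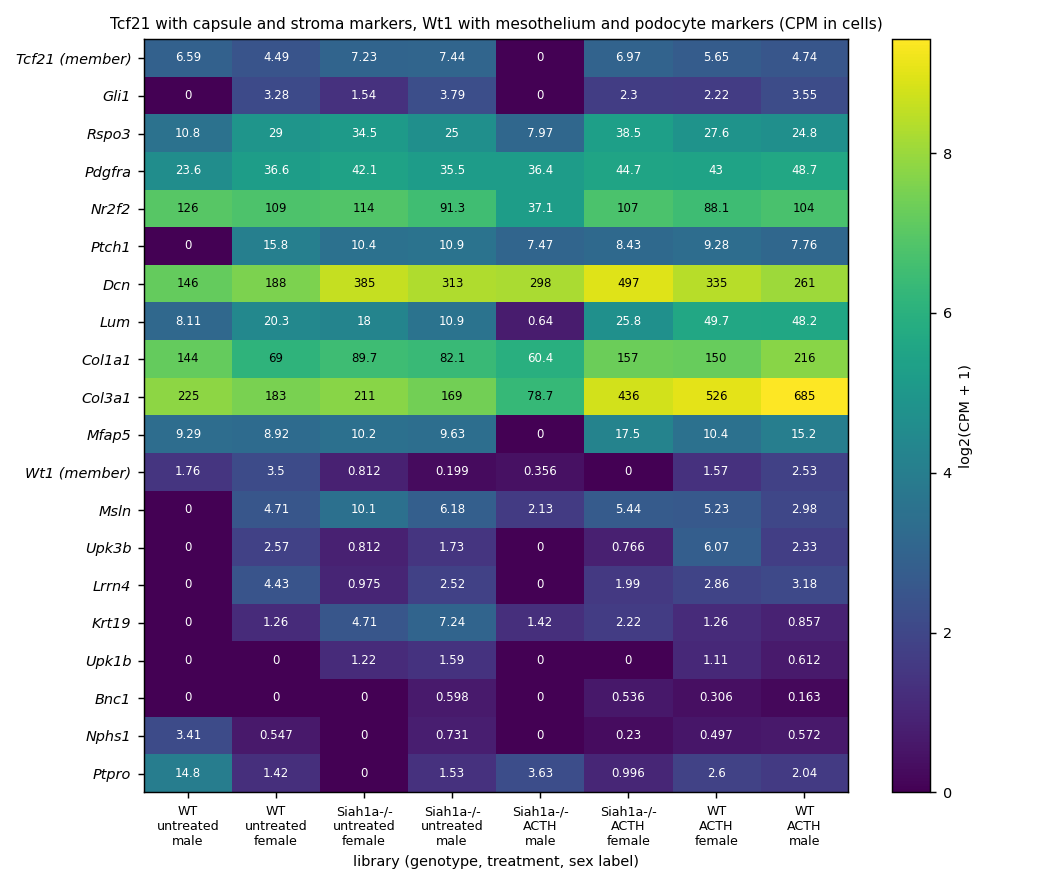
Levels of Tcf21 and Wt1 and of marker genes of capsule, stroma, mesothelium and podocytes in each library, printed in CPM over a colour scale of log2(CPM + 1). The ACTH-treated Siah1a-/- male library shows 0 for Tcf21, Gli1 and Mfap5, and all 6 mesothelium markers are at 0 in the library labelled as an untreated wild-type male.

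The ACTH comparison asked whether 1 hour of hormone exposure moved these regulators. None of the 7 members passed an adjusted p of 0.05 by edgeR, where 3 genes (0.0195%) did, and none had an unadjusted p under 0.05, as 6.11% of all genes had. DESeq2 and limma-voom also called 0 members, against 0.794% and 0.0195% of all genes. For no member were the 4 ACTH libraries clear of the 4 untreated libraries, against 3.89% of all genes. Nr5a1 was at 505 ± 42.2 CPM in untreated and 507 ± 82.8 CPM in ACTH-treated glands (SD, n = 4 each), with a log2 fold change of -0.0024 and SE 0.16 by edgeR. Cited2 was at 143 ± 65.9 CPM and 179.5 ± 99.4 CPM, and its level was higher in the ACTH-treated animal of 4 of 4 pairs, the wild-type female pair being nearly level at 103.2 and 103.3 CPM. Its log2 fold change was 0.28 with SE 0.19 and adjusted p 0.882 by edgeR.

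The remaining members showed no common direction 1 hour after ACTH. Nr0b1 was at 9.22 ± 6.97 CPM in untreated and 10.03 ± 5.80 CPM in treated glands, with a log2 fold change of 0.26 and SE 0.41. Gata6 was at 82.0 ± 25.8 CPM and 69.4 ± 11.5 CPM (log2 fold change -0.20, SE 0.21), lower after ACTH in 3 of 4 pairs. Gata4 was at 2.64 ± 1.96 CPM and 3.80 ± 1.97 CPM (log2 fold change 1.00, SE 1.14). Without the wild-type libraries that carried kidney or liver transcripts this estimate for Gata4 was -0.15, and without only the library where Gata4 was 0 it was 0.32. Wt1 was at 1.57 ± 1.44 CPM and 1.11 ± 1.16 CPM (log2 fold change -0.875, SE 1.52). Leaving out the library labelled as an untreated wild-type male gave -1.54 for Wt1, and leaving out the ACTH-treated Siah1a-/- female library, where Wt1 was 0, gave -0.079. Tcf21 was at 6.44 ± 1.35 CPM and 4.34 ± 3.04 CPM (log2 fold change -0.80, SE 1.22), with its 0 on the treated side, and without that library the estimate was -0.045 (SE 0.52). Adjusted p by edgeR lay between 0.882 and 0.9993 over the 7 members. With all 8 libraries the SEs of Wt1 and Tcf21 were larger than the log2 difference of Cited2 between genotypes, and that of Gata4 was about as large. A change of that size was therefore not detectable for these members. In simulated data edgeR recovered 9% of 2-fold ACTH changes, so a 2-fold change in any other member could also have been missed.

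Whether the ACTH difference itself differed between genotypes was tested by the interaction term. By edgeR 0 members and 0 genes (0%) passed, and 0 members had an unadjusted p under 0.05 against 1.84% of all genes. DESeq2 called 0 members and 0.0651% of all genes, and limma-voom called 0 members and 0% of all genes. In simulated data edgeR recovered 0% of 2-fold and 0% of 4-fold interaction changes. The absence of calls therefore does not show that the ACTH difference was alike in both genotypes. SEs of the interaction estimates ran from 0.36 for Nr5a1 to 2.98 for Wt1. The interaction estimate for Cited2 was 0.22 on the log2 scale, and those of the 7 members lay between -1.35 for Tcf21 and 0.22, all with an adjusted p of 1 by edgeR. Within pairs, Cited2 after ACTH differed from untreated by 0.40 in wild-type males, by 0.00 in wild-type females, by 0.46 in Siah1a-/- males and by 0.30 in Siah1a-/- females, on the log2 scale.

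Nr0b1 separated the libraries by labelled sex, a comparison added after its values had been seen. The 4 male-labelled libraries held 4.23, 3.39, 2.99 and 7.96 CPM and the 4 female-labelled libraries 18.4, 10.9, 16.2 and 12.9 CPM, so the groups did not overlap, and 0.976% of all genes likewise had every male-labelled library below every female-labelled one. The mean was 4.64 CPM in male-labelled and 14.6 CPM in female-labelled libraries, and the female-labelled animal was higher in 4 of 4 pairs. The male to female log2 fold change was -1.73 with SE 0.43, an unadjusted p of 0.00382 and an adjusted p of 1 by edgeR, which called 4 genes (0.026%) and 0 members, while 3.11% of all genes had an unadjusted p under 0.05. DESeq2, the tool with the lowest adjusted p for Nr0b1, gave 0.119 and called 0.137% of all genes, and limma-voom called 0%. The library labelled as an untreated wild-type male had the Xist and Ddx3y levels of the female-labelled libraries and, at 4.23 CPM, an Nr0b1 level below the highest of the other male-labelled libraries, so the separation holds for the labels and not for Xist and Ddx3y. Without it the log2 fold change was -1.65. Over all alternatives it ran from -2.02 to -1.40. The 2 highest male-labelled values, 7.96 and 4.23 CPM, were both wild-type.

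**Figure D5:**
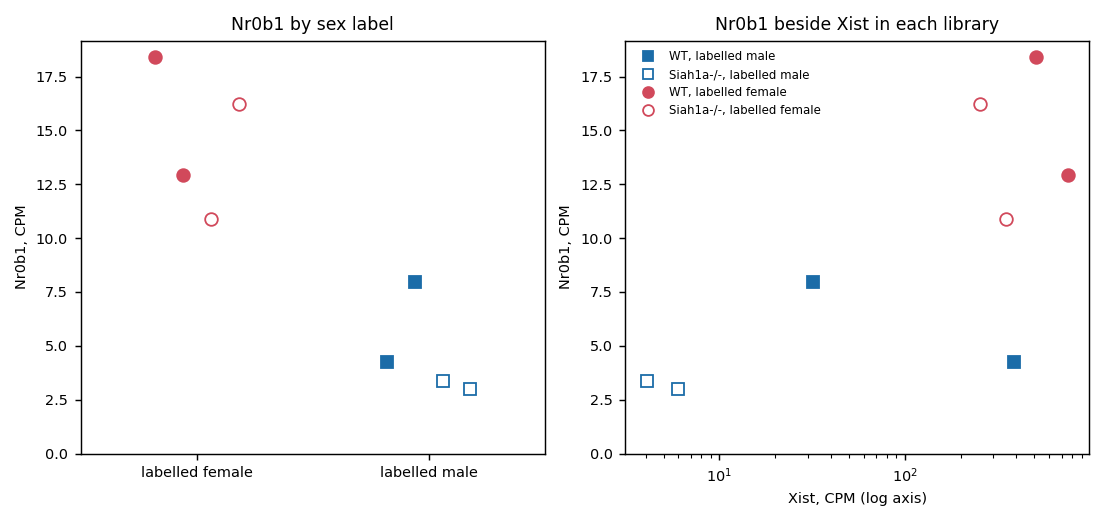
Nr0b1 level in CPM (vertical axes from 0) by labelled sex (left) and beside the Xist level of the same library in CPM on a log axis (right), with filled symbols for wild-type and open symbols for Siah1a-/- animals. The highest male-labelled library, at 7.96 CPM, lies below the lowest female-labelled library, at 10.9 CPM, and 1 male-labelled library, at 388 CPM of Xist and 4.23 CPM of Nr0b1, sits among the female-labelled ones on the Xist axis only.

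Partners and targets of the members were read from lists chosen with earlier results known, and the list genes named for groups that did not overlap were picked after their values were seen. Among 19 steroidogenic target genes of SF-1, none passed in either direction in Siah1a-/- against wild-type glands, 14 were fitted above 0 and 5 below, and their median log2 fold change was 0.58 against -0.04 over all genes tested. The list contains all 9 cortex markers, so it also follows the cortex share of a library, whose part was not tested. Its sum was 40400 CPM in the library with kidney transcripts and 43374 CPM in the library with liver transcripts. The other wild-type libraries held 54421 and 58115 CPM, and the Siah1a-/- libraries 57980 to 93921 CPM. Akr1b7, an aldo-keto reductase of the zona fasciculata, had a log2 fold change of 1.40 (SE 0.24, adjusted p 0.0997 by edgeR), whereas Star, which carries cholesterol into mitochondria, had 0.10 (SE 0.22, adjusted p 0.886 by edgeR). The genotypes did not overlap for 3 of the 19, all higher in Siah1a-/- glands: Akr1b7, the electron carrier Fdx1 and the inhibin subunit Inha, the last at 0.0908 adjusted p by edgeR. That is 15.8% of the list, against 8.92% of all genes. After ACTH none passed, 11 were fitted above 0 and 8 below, with a median of 0.06 against 0.02 over all genes.

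Coregulators and partners of SF-1 and DAX-1 were split evenly, with 13 of 26 tested fitted above 0 and 13 below between genotypes, none called, and a median log2 fold change of 0.00. Hoxb9, one of the most abundant, stood at -0.25 (SE 0.41, adjusted p 0.837 by edgeR). Genotypes did not overlap for 3 of the 26 (11.5%, against 8.92% of all genes), all with lower levels in Siah1a-/- glands. Among them were the E-box factor Usf2 at -0.09 and the Polycomb gene Cbx2 at -1.91 (SE 0.64, adjusted p 0.263 by edgeR). Cbx2 had its highest level, 22.0 CPM, in the library with kidney transcripts and at most 6.04 CPM elsewhere. After ACTH 12 were fitted above 0 and 14 below, with none called and a median of -0.02. Treated and untreated libraries did not overlap for 4 of the 26 (15.4%, against 3.89% of all genes), 2 with higher and 2 with lower levels after ACTH. Among them Nr0b2, the closest relative of Nr0b1, stood at -1.34 (SE 0.36, adjusted p 0.706 by edgeR). Nr5a2, the closest relative of Nr5a1, stood at 4.84 (SE 1.47, adjusted p 0.719 by edgeR), with its highest level, 16.5 CPM, in the library with liver transcripts and at most 3.31 CPM elsewhere.

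The lists of relatives of the GATA members and of Cited2 were shorter. Of 5 tested genes among the other GATA factors and their FOG cofactors, 3 were fitted above 0 and 2 below between genotypes, none was called and the median log2 fold change was 0.01. Gata2 stood at 0.53 (SE 0.27, adjusted p 0.4496 by edgeR) and the repressor Trps1 at -0.0032. Of 7 tested CITED relatives and partners, 3 were above 0 and 4 below with none called and a median of -0.17. Hif1a, the hypoxia factor whose CBP and p300 binding CITED2 competes for, stood at -0.37 (SE 0.16, adjusted p 0.358 by edgeR) and was the 1 of the 7 whose genotypes did not overlap (14.3%, against 8.92% of all genes), and its relative Epas1 stood at -0.17. After ACTH none of either list was called, and the medians were 0.09 and -0.08.

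Among 13 basic helix-loop-helix partners and relatives of TCF21, none passed between genotypes, 8 were fitted above 0 and 5 below, and the median log2 fold change was 0.49. Genotypes did not overlap for 4 of the 13 (30.8%, against 8.92% of all genes), all higher in Siah1a-/- glands: the E proteins Tcf4 at 0.58 and Tcf12 at 0.52, and the inhibitors Id1 at 1.04 (SE 0.17, adjusted p 0.0997 by edgeR) and Id3 at 0.87 (SE 0.16, adjusted p 0.106 by edgeR). Id2, the most abundant of the list, stood at -0.44 (SE 0.28, adjusted p 0.551 by edgeR). After ACTH 10 were fitted above 0 and 3 below, none was called and the median was 0.10.

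The genes most like each member over the 8 libraries were found by the root mean square (RMS) difference of centred log2 CPM profiles, among 12345 eligible genes. For Cited2, whose own RMS deviation was 0.64, they were Cdk2ap2 at 0.13, the SF-1 target Fdx1 at 0.17 and Snhg8 at 0.17. For Gata6, with an own deviation of 0.38, they were Zfp654 at 0.07, Sephs1 at 0.11 and Chmp1b at 0.13. For Nr0b1, with 0.95, they were Zgrf1 at 0.25, Atad5 at 0.33 and Cecr2 at 0.38. For Nr5a1, nearly flat at 0.17, they were Wiz at 0.088, Map4 at 0.095 and Kansl2 at 0.095. Wt1, with few counts and an own deviation of 1.575, had Cabp1 at 0.44, Cdca7 at 0.45 and Hoxd4 at 0.52. Gata4, with 1.71, had 2610020C07Rik at 0.53, Bcat1 at 0.53 and Glt28d2 at 0.54. Each of these, like Gata4, was at 0 in the library labelled as an untreated wild-type male, which listed 403 genes at 0 only there. Tcf21, with 1.89, had Rabl2 at 0.30, Cdc42ep5 at 0.35 and Rassf7 at 0.39. Each of these, like Tcf21, was at 0 in the ACTH-treated Siah1a-/- male library, which listed 181 genes at 0 only there. The likeness to Gata4 and to Tcf21 thus rests largely on 1 library each. All 8 points of a profile share their library's depth and tissue makeup with every other gene.

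In the mm10 annotation Nr5a1 is at chr2:38692656-38714542 on the minus strand and Wt1 at chr2:105126529-105173614 on the plus strand. Cited2, at chr10:17723228-17725674 on the plus strand, and Tcf21, at chr10:22817263-22820143 on the minus strand, share a chromosome. Gata4 is at chr14:63198914-63271712 on the minus strand, Gata6 at chr18:11052510-11085636 on the plus strand, and Nr0b1 at chrX:86191775-86195947 on the plus strand.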

How the data were processed

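Whole adrenal glands of 8 mice were sequenced, 1 library for each animal. Per the file headers, the authors deposited estimated counts and RPKM for each RefSeq transcript. Per the submitters' processing notes, the tools were Partek 6.6, Bowtie2 2.2.5.0, TopHat2 2.0.13 and FastQC 0.11, on build mm10. How strand and multiply matching reads were treated was not given in the sources used here. Estimated counts were summed over the transcripts of a symbol and rounded to whole numbers, and RPKM were summed over transcripts. CPM were computed on library sizes scaled by TMM, with factors from 0.8879 to 1.065.

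Tests used edgeR 4.0.16 (quasi-likelihood F-test, filterByExpr with a minimum count of 10, R 4.3.3) on all 8 libraries, with genotype, treatment and labelled sex as terms, or with the genotype by treatment interaction added, leaving 4 and 3 residual degrees of freedom. P-values were adjusted by Benjamini-Hochberg over 15361 genes and called under 0.05. A standard error is the absolute log2 fold change over the square root of F. The p-values measure spread between single animals of 1 strain. Fold changes of low-count genes depend on a prior count, 3 counts were taken as the floor, and these cover counting error only. Scripts were tested on simulated data. There, edgeR recovered 5% of 2-fold and 60% of 4-fold changes between genotypes, 9% and 68% for ACTH, and 0% for the interaction.

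The members and all gene lists were chosen with earlier results of these data known. Named were all members, for each pathway list the called genes or else the 2 with the highest mean CPM, and the 3 genes most like each member with mean log2 CPM of at least 1. Some list genes are not reported here. Alternatives were RLE size factors, no filter, DESeq2 1.42.0, limma-voom (limma 3.58.1), no labelled-sex term, each library left out, both wild-type libraries with kidney or liver transcripts left out, and levels as unscaled CPM or RPKM. The comparison of labelled sexes was added after seeing the data.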

Additional observations from a re-analysis of the deposited data

Results flagged for a closer look

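Among 42 groups of 4 libraries examined over the members, 2 held a library farther from the rest than Dixon's 95% critical value allows, and chance alone marks about 1 in 20 such groups. Cited2 in the library labelled as an untreated wild-type male was at 81.03 CPM, below the other 3 wild-type libraries at 103.2, 103.3 and 106.6 CPM. This is also the library with the lowest total, with kidney transcripts and with a female-range Xist level. Tcf21 in the ACTH-treated Siah1a-/- male library was at 0 CPM, where the other 3 Siah1a-/- libraries held 6.97 to 7.44 CPM.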

How the results depend on the processing

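Over 14 alternatives for each of the 7 members, 90 of 98 genotype estimates kept their direction and their side of the threshold, 3 passed it (all Cited2) and 5 changed sign. Of 98 ACTH estimates 9 changed sign, and of 98 interaction estimates 18 did. The 13 estimates of Nr0b1 by labelled sex kept their direction. The cause of these moves was not tested. Members called between genotypes were 1 with DESeq2 and 1 with limma-voom, and 0 to 1 with 1 library left out. Genes called between genotypes, 4 as reported, numbered 41 without the filter, 944 with DESeq2, 108 with limma-voom, 1 without the labelled-sex term and 0 to 253 with 1 library left out (253 without the untreated wild-type female). Genes called for ACTH, 3 as reported, numbered 8 without the filter, 122 with DESeq2, 0 without the labelled-sex term, 0 without both wild-type libraries that carried kidney or liver transcripts and 0 to 23 with 1 library left out. Genes called for the interaction numbered 10 with DESeq2, 2 without both those libraries and 0 to 11 with 1 library left out. By labelled sex, 4 as reported, they were 7 without the filter, 21 with DESeq2, 0 with limma-voom, 7 without both those libraries and 1 to 25 with 1 library left out.

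Log2 estimates that changed sign between genotypes were Tcf21 at 0.0039 with limma-voom and -1.10 to 0.43 with 1 library left out, and Nr5a1 at -0.13 without both those libraries and -0.067 to 0.19 with 1 left out. For ACTH they were Nr5a1 at 0.00038 without the filter, 0.0034 without the labelled-sex term, 0.063 without both libraries and -0.10 to 0.14 with 1 left out, Nr0b1 at -0.050 with limma-voom and -0.054 to 0.48 with 1 left out, and Gata4 at -0.15 without both libraries. For the interaction, Nr0b1 was at 0.0099 with RLE, 0.023 with DESeq2, 0.71 with limma-voom, 0.55 without the labelled-sex term and -0.70 to 0.70 with 1 library left out. Without both libraries Gata4 was at 1.24 and Gata6 at 0.012. With 1 library left out the interaction ranged from -0.68 to 0.28 for Gata6, -0.15 to 0.50 for Nr5a1, -0.22 to 0.57 for Cited2, -6.14 to 0.59 for Wt1 and -9.95 to 0.039 for Tcf21. Leaving 1 library out leaves 1 group with a lone animal, assumed to vary like the other groups. No paired test was run, and the labels give no replicate numbers shared between groups. Animals were matched only by treatment and labelled sex, which were terms of the fit. Wt1 had 0 to 64 counts in a library, which limits its precision.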
